A study of Homo sapiens with 42 samples.

Results

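The 10 genes described here encode solute carriers that bring amino acids across the plasma membrane of human cells: SLC7A1, SLC7A5, SLC7A6, SLC7A11, SLC3A2, SLC38A1, SLC38A2, SLC1A4, SLC1A5 and SLC43A1. They were chosen by symbol, from what the proteins do, out of 34318 genes with estimated counts, and all 10 passed the filter on low counts in every comparison. Their mRNA was measured by poly(A) RNA sequencing in 42 libraries, 3 for each of 14 groups, of cells in which RNA polymerase III (Pol III), the enzyme that makes tRNAs and other short noncoding RNAs, was targeted. HEK293T cells, a kidney-derived human line, received for 48 h either 200 nM of a POLR3G antisense oligonucleotide (ASO) or a scramble ASO, 200 nM of a POLR3G siRNA or a control siRNA, or 25 nM of 1 of 3 POLR3GL siRNAs (siE4, siE6, siE8) or a control siRNA. POLR3G and POLR3GL encode alternative forms of a Pol III subunit. In a further HEK293T experiment the Pol III repressor MAF1 was overexpressed for 48 h from a transfected plasmid, with eGFP overexpression as the control. THP-1 cells, a monocytic leukaemia line, were given DMSO, 25 uM ML-60218 for 4 h, 10 ug/ml cycloheximide (CHX) for 4.5 h, or both compounds. ML-60218 inhibits Pol III and CHX blocks translation. Oligonucleotides and plasmids were carried into HEK293T by lipid reagents, and the labels name no untransfected group. The question was how mRNAs of the transporters differed between each treatment and its own control.

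SLC7A5 (LAT1) carries large neutral amino acids such as leucine, SLC7A6 exchanges cationic for neutral amino acids, and SLC7A11 (xCT) imports cystine, a source of cysteine for glutathione, in exchange for glutamate. Each of these light chains reaches the surface bound to the heavy chain SLC3A2 (4F2hc). SLC7A1 (CAT1) is a uniporter of arginine and lysine, SLC38A1 and SLC38A2 are sodium-coupled glutamine and alanine transporters, SLC1A4 (ASCT1) and SLC1A5 (ASCT2) exchange small neutral amino acids and, for the latter, glutamine, and SLC43A1 (LAT3) carries leucine and related amino acids without a heavy chain. Shortage of amino acids leads, through kinases that phosphorylate eIF2alpha, to the transcription factor ATF4, which is known to raise many of these genes, while intracellular leucine and arginine are read by the mTORC1 pathway. In GRCh38, SLC7A1 lies at chr13:29509410-29595688, SLC7A5 at chr16:87830023-87869488, SLC7A6 at chr16:68264516-68301823, SLC7A11 at chr4:138164097-138242349 and SLC3A2 at chr11:62856102-62888875. SLC38A1 lies at chr12:46183063-46270017, close to SLC38A2 at chr12:46358189-46372867, and SLC1A4 at chr2:64988477-65023865, SLC1A5 at chr19:46774883-46788594 and SLC43A1 at chr11:57484534-57515786. All are protein-coding genes, and values are sums over a gene's annotated transcripts of every class, including those annotated as retained introns.

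The libraries held 32705684 to 52568088 reads. All 10 monocyte markers were higher in every THP-1 library than the highest HEK293T library, although MPO reached only 0.721 to 1.32 TPM in THP-1, and the 8 markers of HEK293T were at 1.63 TPM or less in THP-1. POLR3G fell from 24.1 ± 3.79 to 8.57 ± 1.95 CPM (mean ± SD, n = 3) with the ASO and from 34.4 ± 6.13 to 14.5 ± 2.46 CPM with its siRNA. In TPM these falls were smaller, from 14.65 ± 2.31 to 8.83 ± 1.24 and from 21.3 ± 2.85 to 12.7 ± 0.9045. POLR3GL fell as well in both, 1.36-fold and 1.49-fold (edgeR adjusted p = 0.000186 and 7.91e-07), and MAF1 was 5.07-fold lower with the POLR3G siRNA, from 49.96 ± 1.30 to 9.84 ± 0.675 CPM. POLR3GL fell from 34.1 ± 2.00 CPM to 2.89 ± 0.472 with siE4, 3.36 ± 0.613 with siE6 and 2.61 ± 0.207 with siE8, and POLR3G fell 1.80-fold, 1.48-fold and 1.91-fold in the same libraries. MAF1 rose 74.7-fold when overexpressed. The ASO libraries stood apart in several measures, whose part in the ASO results was not tested. The summed level of olfactory receptor genes, which these lines are not known to use, was 603 CPM with the POLR3G ASO, 190 CPM with the scramble ASO and 54.9 to 113 CPM in the other groups. The POLR3G ASO libraries had the fewest reads, 32705684 to 35035342 against 37393877 or more in the others, and in HEK293T the highest share of reads on transcripts not matched to the annotation, 9.43% to 9.54% against at most 8.80%. Mitochondrial transcripts held 7.78% ± 0.105 of reads with that ASO and 9.54% ± 0.419 with the scramble ASO, the latter above every library of the other groups.

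Levels of different genes were compared as TPM, which corrects for transcript length. In the 25 nM control siRNA libraries of HEK293T the order was SLC1A5 at 241 ± 14.6 TPM, SLC38A2 at 202 ± 3.997, SLC3A2 at 162 ± 3.30, SLC38A1 at 112 ± 2.74, SLC7A5 at 85.1 ± 3.45, SLC7A1 at 49.1 ± 1.07, SLC43A1 at 32.0 ± 4.16, SLC7A6 at 23.6 ± 0.537, SLC7A11 at 22.03 ± 0.293 and SLC1A4 at 12.4 ± 0.351 (SD, n = 3). No neighbours in that order overlapped between libraries. In THP-1 with DMSO, SLC38A2 led at 149 ± 0.700 TPM, followed by SLC1A5 at 65.3 ± 1.10, SLC38A1 at 59.3 ± 0.685, SLC3A2 at 58.3 ± 3.71, SLC1A4 at 47.7 ± 1.42, SLC7A5 at 30.8 ± 0.637, SLC7A1 at 22.7 ± 0.358, SLC7A6 at 16.4 ± 1.07, SLC43A1 at 15.2 ± 1.58 and SLC7A11 at 1.40 ± 0.171. There SLC38A1 and SLC3A2 overlapped, as did SLC7A6 and SLC43A1. Across the 12 control libraries of HEK293T and the 3 DMSO libraries of THP-1, 8 members were higher in every HEK293T library, from 1.94-fold between medians for SLC38A1 to 16.1-fold for SLC7A11. SLC38A2 overlapped between the lines. SLC1A4 alone was higher in every THP-1 library, at 46.1, 48.3 and 48.7 TPM against 4.75 to 13.2 TPM in HEK293T. The lines were grown and treated in separate experiments, so these differences carry no test. The share of all genes that part the lines in this way is not given here, so the count of 8 describes these members only. The leading SLC43A1 transcript also differed, with ENST00000528450 holding 73.5% ± 12.2 of the gene's reads in DMSO and 17.2% ± 6.81 in the 25 nM control siRNA libraries.

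**Figure D1:**
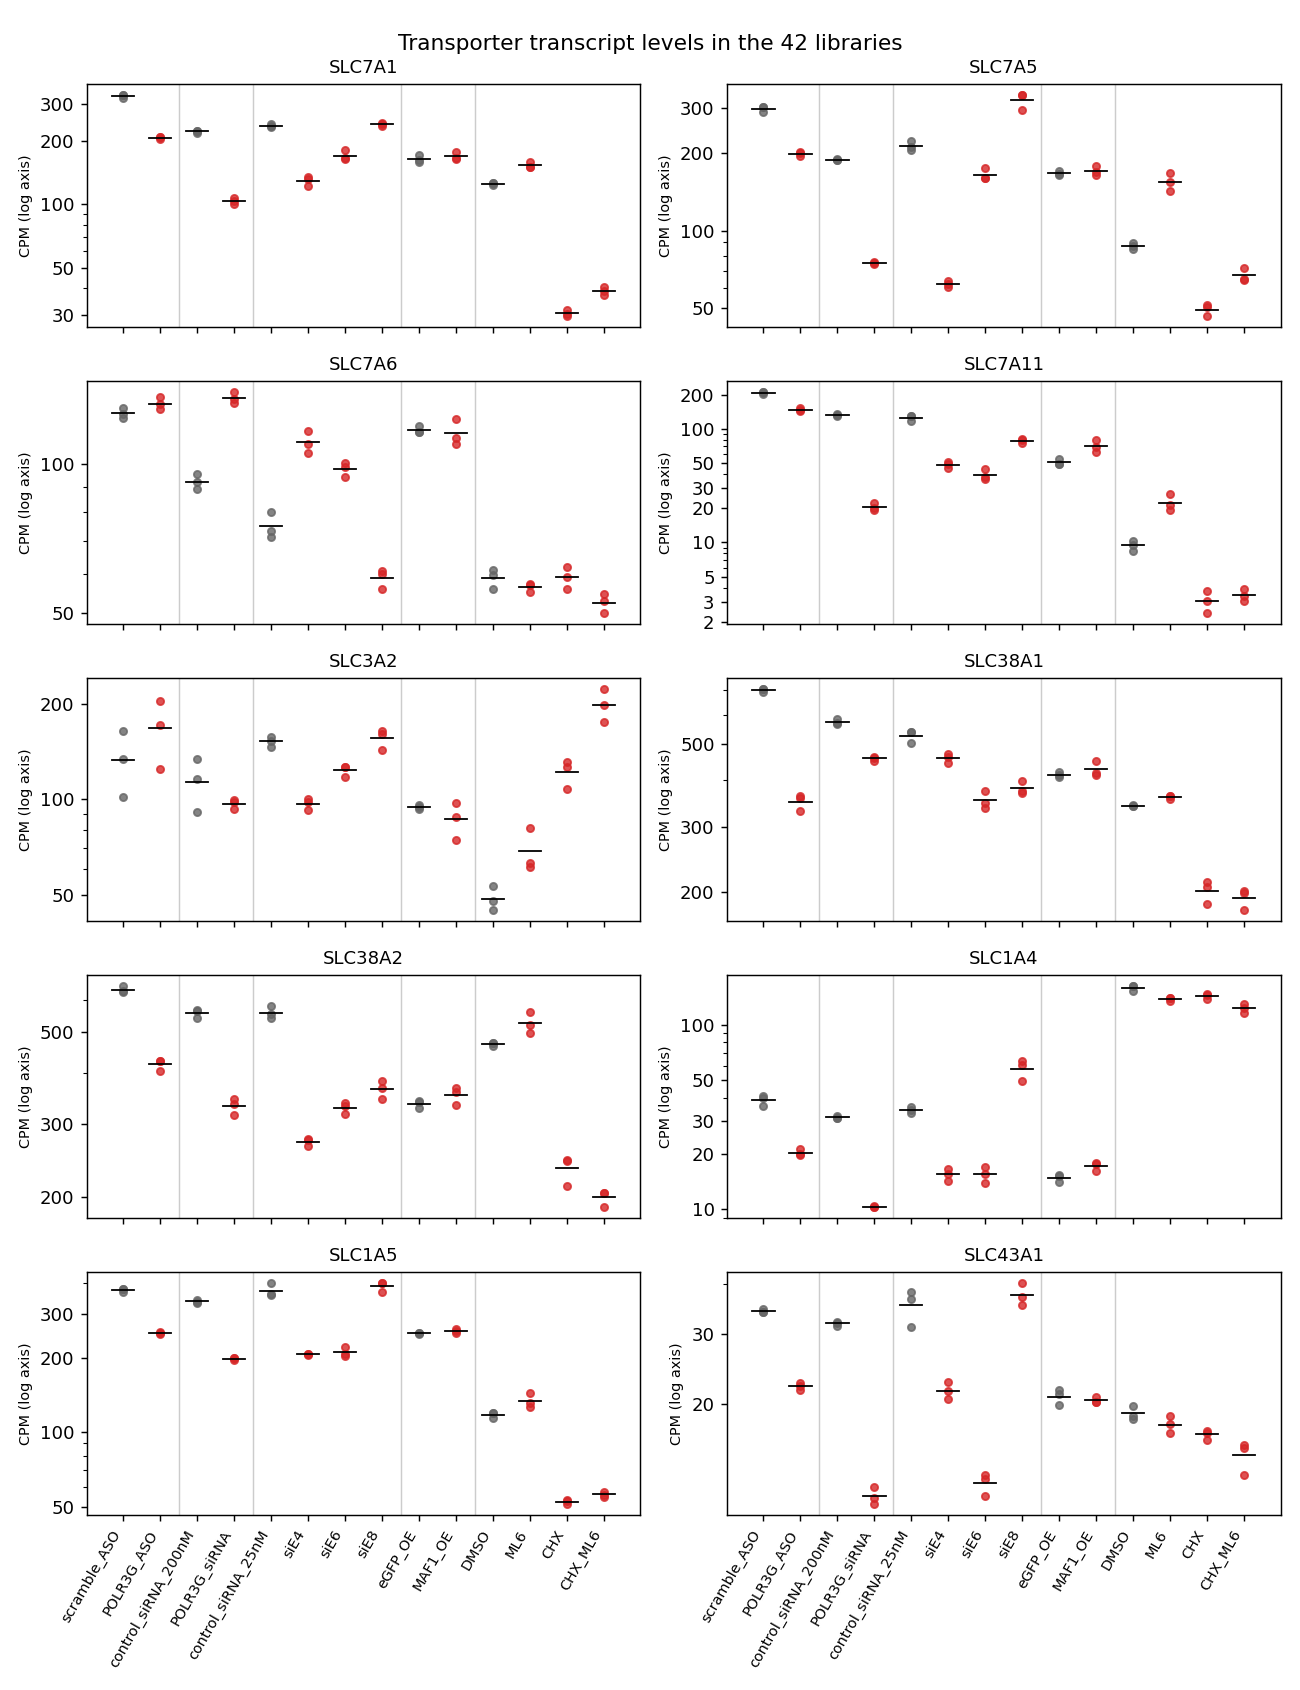
Each point is 1 library, with its CPM on a log axis, black lines are group means, grey marks controls and red marks treatments, and vertical lines part the 5 experiments. SLC7A11 spans from 2.38 CPM with CHX to 213 CPM with the scramble ASO, and SLC3A2 shows the widest spread within the ASO groups.

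**Figure D2:**
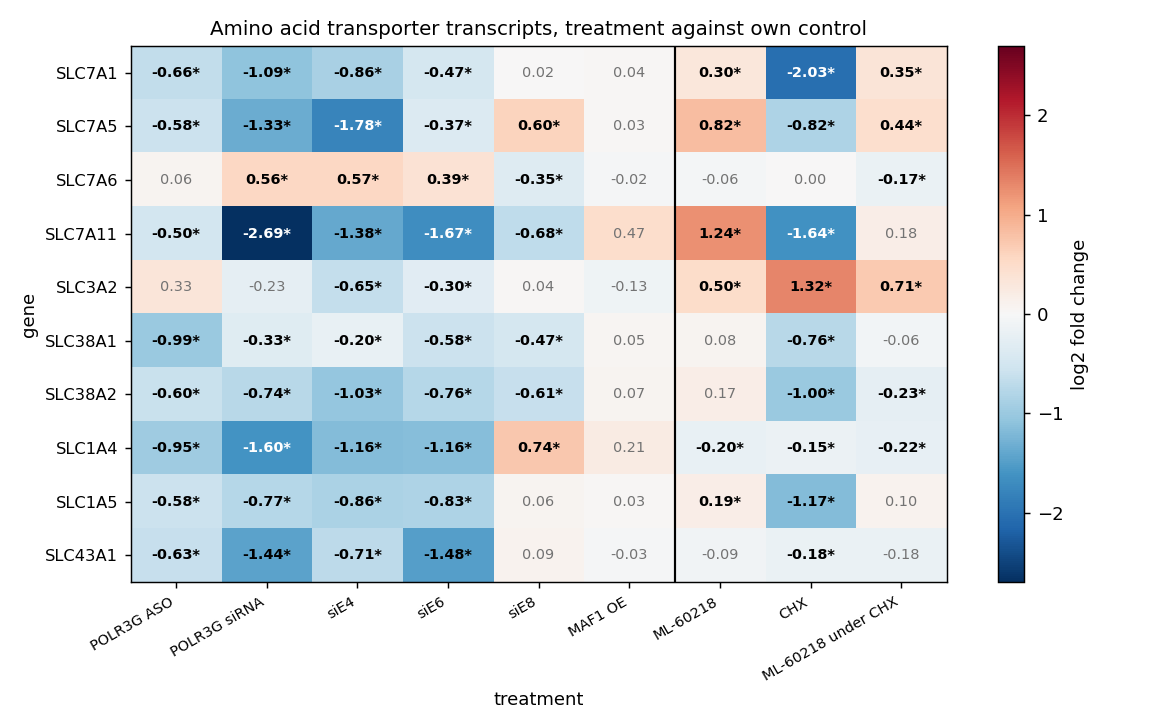
Each cell gives the log2 fold change of a transporter (rows) in a treatment against its own control (columns), with an asterisk and bold type where the edgeR adjusted p was under 0.05, and a line parting HEK293T from THP-1. Blue, for lower, fills the 4 leftmost columns apart from SLC7A6 and, with the ASO, SLC3A2, while the ML-60218 column holds 5 called rises.

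Over the 9 comparisons of a treatment with its control, SLC7A5 and SLC1A4 were called in 8 each, more often than any other member, and SLC7A6, SLC3A2 and SLC43A1 in 5 each, the fewest. A call is an adjusted p under 0.05 after Benjamini-Hochberg correction over all genes tested. Calls were common among all genes, with 38.1% lower and 36.8% higher under the POLR3G siRNA and 32.5% and 33.5% under CHX. With MAF1 they were rare, at 0.00643% lower and 0.0322% higher. Calls over the 9 comparisons were counted for the members alone, so the counts serve only to choose the windows shown. For these 5 members 150 bases around a RefSeq start (GRCh38.p14), from 120 before it to 30 from it onward, are shown 5′ to 3′ on the gene's strand, to show what the letters near the starts hold. Windows from 250 bases before to 50 after each start were searched on both strands for TGATGNAA, the core of the element bound by ATF4 with C/EBP factors, for TGACNNNGC, the antioxidant response element, and for CACGTG, the E-box. Capitals mark any match:
SLC1A4, chr2:64989279-64989428, plus strand: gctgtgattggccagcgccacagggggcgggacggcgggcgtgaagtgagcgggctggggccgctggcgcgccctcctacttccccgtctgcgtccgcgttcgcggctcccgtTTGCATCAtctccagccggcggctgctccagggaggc
SLC7A5, chr16:87869478-87869627, minus strand: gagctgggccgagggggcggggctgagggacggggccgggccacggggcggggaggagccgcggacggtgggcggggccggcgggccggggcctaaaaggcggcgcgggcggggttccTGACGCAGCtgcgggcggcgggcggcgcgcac
SLC7A6, chr16:68264406-68264555, plus strand: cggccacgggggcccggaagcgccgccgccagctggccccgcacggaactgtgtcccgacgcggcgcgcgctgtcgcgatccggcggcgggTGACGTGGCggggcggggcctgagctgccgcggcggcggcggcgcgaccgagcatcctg
SLC3A2, chr11:62881579-62881728, plus strand: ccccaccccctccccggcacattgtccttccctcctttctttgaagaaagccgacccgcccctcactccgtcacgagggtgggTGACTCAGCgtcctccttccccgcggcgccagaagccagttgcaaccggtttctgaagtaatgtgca
SLC43A1, chr11:57515673-57515822, minus strand: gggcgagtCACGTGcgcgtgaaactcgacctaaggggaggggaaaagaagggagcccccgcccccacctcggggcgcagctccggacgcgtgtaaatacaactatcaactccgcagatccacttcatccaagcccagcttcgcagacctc

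SLC1A4 holds the ATF4 core on the opposite strand, 7 bases before its start, SLC7A5, SLC7A6 and SLC3A2 hold the antioxidant element, and SLC43A1 holds the E-box. RefSeq windows were matched for 9 of the 10 members, the exception being SLC7A11, and these gave 16 windows. The ATF4 core was found in 5 of the 16 windows (of SLC7A1, SLC3A2, SLC38A1, SLC1A4 and SLC1A5), and in 3.62% of all 35116 windows searched. The antioxidant element was in 5 of the 16 and 13.3% of all windows, and the E-box in 3 of the 16 and 7.26% of all. Where a gene had several starts, the window shown is one with a match. A match describes these letters only.

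With the POLR3G siRNA, 8 transporters fell, SLC7A6 rose and SLC3A2 was not called, against a background in which 38.1% of 15423 tested genes fell and 36.8% rose. The members' median log2 fold change was -0.93, and that of all genes -0.02. Because RNA came from whole cultures, fewer cells carrying a transcript and less of it per cell cannot be told apart. The cystine importer SLC7A11 stood at 22.1, 20.1 and 19.3 CPM with the siRNA and at 135, 133 and 129 CPM in the control. Every siRNA library lay far below every control library, a log2 fold change of -2.69 (SE 0.04, 6.46-fold lower, edgeR adjusted p = 4.08e-10), and 0.862% of genes tested moved as far or further. SLC7A5 was at 74.5, 75.4 and 75.1 CPM against 190, 188 and 188 CPM, and fell by 1.33 on the log2 scale (SE 0.02, edgeR adjusted p = 1.64e-10). SLC7A1 was at 104, 101 and 107 CPM against 224, 219 and 223 CPM, and fell by 1.09 (SE 0.03, edgeR adjusted p = 1.61e-09). For both, the groups lay well apart and varied little within themselves.

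Both ASCT genes fell with this siRNA, but by unlike amounts. SLC1A4 was at 10.3, 10.4 and 10.3 CPM against 31.9, 31.3 and 31.1 CPM, a fall by 1.604 on the log2 scale (SE 0.04, edgeR adjusted p = 1.48e-09), and SLC1A5 went from 343, 333 and 336 CPM to 199, 196 and 199 CPM, a fall by 0.77 (SE 0.02, edgeR adjusted p = 2.21e-09). The leucine carrier SLC43A1 was at 12.4, 11.2 and 11.6 CPM against 31.5, 32.0 and 32.2 CPM and fell by 1.44 (SE 0.04, edgeR adjusted p = 7.88e-09). The sodium-coupled pair fell less, SLC38A2 by 0.74 and SLC38A1 by 0.33 on the log2 scale (edgeR adjusted p = 7.66e-08 and 3.53e-07), again with no overlap between groups. SLC7A6 went the other way, at 136, 140 and 133 CPM against 92.2, 89.0 and 95.4 CPM, a rise of 0.56 (SE 0.03, edgeR adjusted p = 2.82e-07). SLC7A6 overlaps SLC7A6OS on the opposite strand, which averaged 36.3 CPM over all libraries, and whether the authors' counting used strand is not stated in the labels. SLC3A2 was at 93.2, 97.8 and 99.2 CPM against 91.0, 134 and 116 CPM, so the groups overlapped (log2 fold change -0.23, SE 0.12, edgeR adjusted p = 0.0961). Without the lowest control library, replicate 1, the log2 fold change was -0.37 and was called (edgeR adjusted p = 0.000768, in a range of 0.000768 to 0.383 over the alternatives), as it was with an offset for effective transcript length (-0.39, 0.00993).

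Of the 27 tested ATF4 targets outside transport, 26 fell with the POLR3G siRNA and 1 rose, at a median of -1.16 on the log2 scale. The largest falls among those named by size were of CHAC1, which degrades glutathione (-4.13, SE 0.08), the hormone subunit INHBE (-3.92, SE 0.15) and the transcription factor JDP2 (-2.91, SE 0.09) (edgeR adjusted p = 7.02e-10, 2.59e-08 and 6.81e-09). Among 15 regulators of the transporters 4 rose and 8 fell. EIF2AK1, a kinase of eIF2alpha that responds to haem, was at 50.6 CPM against 237 CPM (log2 fold change -2.23, SE 0.02, edgeR adjusted p = 4.14e-11), and BACH1, a repressor of antioxidant genes, fell by 1.07. Of 19 other plasma membrane amino acid transporters 10 fell and 6 rose, with the glycine transporter SLC6A9 lower by 2.84 and the taurine transporter SLC6A6 by 2.12, and the glutamate transporter SLC1A3 higher by 1.69. Lysosomal and vesicular transporters went 3 up and 1 down of 8, and mTORC1 amino acid sensing genes 17 up and 11 down of 31, with RRAGD, a Rag GTPase, lower by 1.54 and CASTOR2 higher by 1.33. Of 10 glutathione genes 4 rose and 1 fell, among them the subunits of glutamate-cysteine ligase, GCLM (0.82) and GCLC (0.60). Of all genes tested, 36.8% rose and 38.1% fell, so list counts near these shares show nothing particular to a list.

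The POLR3G ASO, at the same dose and time, gave 8 falls and no called rise among the members, where 34.1% of 17098 genes fell and 34.4% rose. The median of the members was -0.59 and of all genes -0.00 on the log2 scale. The largest fall was of SLC38A1, at 358, 362 and 332 CPM against 701, 691 and 705 CPM (log2 fold change -0.99, SE 0.03, edgeR adjusted p = 5.06e-08), which is the member that the siRNA lowered least among those it lowered. SLC1A4 was at 19.6, 20.0 and 21.3 CPM against 40.1, 36.4 and 41.2 CPM and fell by 0.95 (SE 0.06, edgeR adjusted p = 1.21e-06). The other 6 falls, of SLC7A1, SLC43A1, SLC38A2, SLC7A5, SLC1A5 and SLC7A11, lay between -0.66 and -0.50, with no overlap between groups. SLC7A6 was at 132, 129 and 137 CPM against 130, 124 and 127 CPM and was not called (log2 fold change 0.06, edgeR adjusted p = 0.0739), although it was called higher with DESeq2's size factors (0.08, edgeR adjusted p = 0.0394) and without ASO replicate 2 (0.08, 0.0487). SLC3A2 overlapped between the groups and varied widely within each, at 205, 125 and 172 CPM against 134, 164 and 102 CPM (log2 fold change 0.33, SE 0.19, edgeR adjusted p = 0.156). It rose to 0.50 and was called without the ASO replicate 2 (edgeR adjusted p = 0.0338) or without the scramble replicate 2 (edgeR adjusted p = 0.0475), and its transcript ENST00000338663 held 13.8% to 41.5% of its reads in the ASO libraries.

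ATF4 targets under the ASO went 16 down and 8 up of 28, at a median of -0.33. ALDH1L2, a mitochondrial folate enzyme, fell by 1.28 and JDP2 by 1.27, while INHBE rose by 1.21 (edgeR adjusted p = 2.45e-07, 4.71e-06 and 3.38e-05). PPP1R15A, which directs dephosphorylation of eIF2alpha, rose by 1.15 and ATF4 mRNA by 0.56 among regulators, of which 4 rose and 7 fell. Other plasma membrane transporters went 5 up and 10 down of 20, again with SLC6A9 lowest (-1.48), followed by the cationic carrier SLC7A3 (-1.19), and with SLC43A2, a relative of SLC43A1, higher by 0.95. Lysosomal transporters went 2 up and 3 down of 9, mTORC1 sensing genes 10 up and 12 down of 31, and glutathione genes 1 up and 6 down of 10, with GSTP1 lower by 0.35. Of all genes tested, 34.4% rose and 34.1% fell.

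Set directly against each other over the 12 libraries, the ASO effect minus the siRNA effect was called for 9 of 10 members: 7 were higher (less lowered) with the ASO and 2 lower, where 33.8% of genes were called higher and 33% lower. SLC7A11 gave the widest gap, 2.16 on the log2 scale (SE 0.06, edgeR adjusted p = 3.29e-12), followed by SLC43A1 at 0.78, SLC7A5 at 0.72, SLC1A4 at 0.62 and SLC7A1 at 0.40, each lowered further by the siRNA. SLC1A5 differed by 0.16 and SLC38A2 by 0.12 (edgeR adjusted p = 7.71e-05 and 0.0336), and the latter call was lost without the low-count filter, with the length offset, and without scramble ASO replicate 2 or 3, ASO replicate 1 or 2, control siRNA replicate 1 or 3, or siRNA replicate 2 (edgeR adjusted p = 0.0857 to 0.121 over these libraries). The 2 members lower with the ASO were SLC38A1 (-0.70, SE 0.04) and SLC7A6 (-0.53, SE 0.04). SLC3A2 was not called (0.53, SE 0.27, edgeR adjusted p = 0.0948), but was without scramble ASO replicate 2, ASO replicate 2 or control siRNA replicate 1 (0.0324, 0.0237 and 0.0443), with the length offset (0.70, 0.0243) and with all HEK293T libraries in 1 fit (0.55, 0.0213). The difference in POLR3G itself was -0.27 (SE 0.25, edgeR adjusted p = 0.356). Among ATF4 targets 23 of 28 were higher and 2 lower under the ASO than under the siRNA, and INHBE differed by 5.10. Without a filter on low counts the all-gene median of this difference moved from 0.08 to 0.31, and with DESeq2 to 0.38.

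The POLR3GL siRNAs, each at 25 nM and sharing 1 control group, gave unlike transporter profiles. With siE4, 9 members fell and SLC7A6 rose, against 28.7% of 15573 genes that fell and 26.2% that rose. With siE6 the split was the same, 9 lower and SLC7A6 higher, against 31.8% and 31.2%. With siE8, 4 fell and 2 rose, against 28.6% and 29.1%. The medians over the members were -0.86, -0.67 and 0.03 on the log2 scale, and all-gene medians were -0.02, -0.00 and -0.01. With an offset for effective transcript length the share of called genes that were higher moved from 47.7% to 64.7% for siE4 and from 49.5% to 61.8% for siE6, and the all-gene median for siE6 to 0.11.

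SLC7A5 showed the widest split among the siRNAs. It was at 211, 224 and 205 CPM in the control, at 60.5, 64.0 and 62.2 CPM with siE4, at 160, 161 and 175 CPM with siE6 and at 295, 338 and 336 CPM with siE8. So siE4 and siE6 lay below every control library and siE8 above every one, with log2 fold changes of -1.78 (SE 0.06), -0.37 (SE 0.06) and 0.60 (SE 0.06) and edgeR adjusted p = 1.36e-10, 7.76e-05 and 1.13e-06. SLC1A4 likewise went both ways, at 34.6, 35.8 and 33.4 CPM in the control, 14.3, 15.5 and 16.5 CPM with siE4, 13.9, 15.6 and 17.0 CPM with siE6, and 49.6, 60.4 and 63.1 CPM with siE8. Its log2 fold changes were -1.16, -1.16 and 0.74 (SE 0.09 each, edgeR adjusted p = 3.07e-07, 1.88e-07 and 9.72e-06). SLC7A6 mirrored them, at 80.1, 71.3 and 73.3 CPM in the control, 106, 110 and 117 CPM with siE4, 94.3, 101 and 99.0 CPM with siE6 and 59.9, 56.0 and 60.8 CPM with siE8. It rose by 0.57 with siE4 and 0.39 with siE6 and fell by 0.35 with siE8 (edgeR adjusted p = 1.32e-06, 2.97e-05 and 0.00011).

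SLC7A11, SLC38A1 and SLC38A2 fell with each of the 3 siRNAs. SLC7A11 was at 129, 117 and 131 CPM in the control, 44.8, 50.9 and 48.7 CPM with siE4, 36.4, 37.5 and 44.3 CPM with siE6 and 81.1, 79.3 and 74.5 CPM with siE8. All 9 knockdown libraries lay below the control libraries, by 1.38, 1.67 and 0.68 on the log2 scale (edgeR adjusted p = 6.93e-09, 9.49e-10 and 3.22e-06). SLC38A2 fell by 1.03, 0.76 and 0.61, and SLC38A1 by 0.20, 0.58 and 0.47, the highest edgeR adjusted p of the 6 being 0.00324 for SLC38A1 with siE4. That last call was lost with the length offset (-0.11, edgeR adjusted p = 0.0943, range over alternatives 8.99e-05 to 0.0943).

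SLC7A1, SLC1A5, SLC3A2 and SLC43A1 fell with siE4 and siE6 and were not called with siE8. SLC7A1 was at 236, 240 and 232 CPM in the control and at 242, 235 and 239 CPM with siE8, fully overlapping (log2 fold change 0.02, SE 0.05, edgeR adjusted p = 0.784), while siE4 lowered it by 0.86 and siE6 by 0.47. SLC1A5 fell by 0.86 and 0.83, and with siE8 its value was 0.06 (SE 0.05, edgeR adjusted p = 0.301), called without control replicate 2 (0.12, 0.0428) and with the length offset (0.13, 0.0456). SLC3A2 was at 153, 157 and 146 CPM in the control, 92.2, 100 and 97.7 CPM with siE4, 118, 126 and 126 CPM with siE6 and 143, 164 and 161 CPM with siE8, falls of 0.65 and 0.30 for siE4 and siE6, the latter not called when all HEK293T libraries shared 1 fit (edgeR adjusted p = 0.0773). SLC43A1 fell by 0.71 with siE4 and by 1.48 with siE6, from 36.7, 38.2 and 31.3 CPM to 13.3, 11.8 and 13.01 CPM in the latter (edgeR adjusted p = 5.40e-09).

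**Figure D3:**
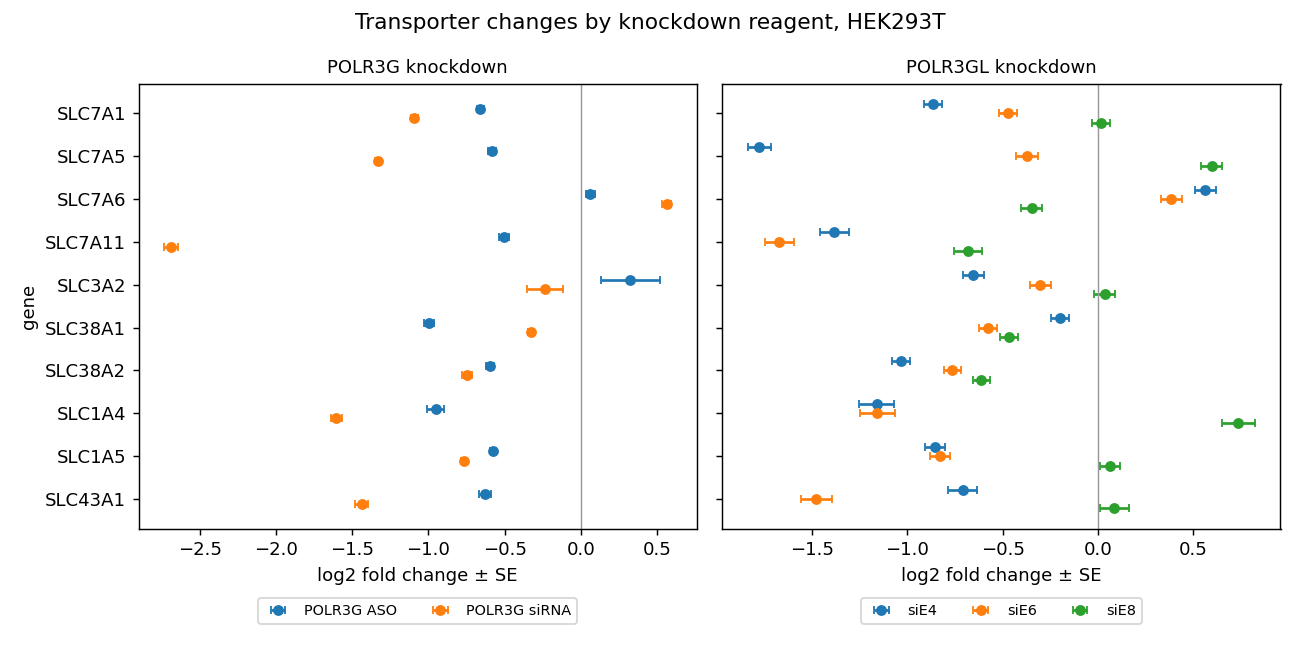
Points are log2 fold changes against the matching control with standard errors from edgeR, for the POLR3G ASO and siRNA on the left and for the POLR3GL siRNAs on the right, in HEK293T. SLC7A11 with the POLR3G siRNA is the point farthest left at -2.69, and the siE8 points of SLC7A5 and SLC1A4 lie right of 0 where those of siE4 and siE6 lie left of it.

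Tests between the siRNAs called most, but not all, of these differences against the spread of 3 libraries per group. Between siE4 and siE8 all 10 members were called, 8 lower and 2 higher with siE4 (background 32.4% and 30.5%), with SLC7A5 at -2.38 (SE 0.06) and SLC1A4 at -1.90 (SE 0.09). Between siE6 and siE8, 8 were lower and 1 higher with siE6 (background 32.1% and 32.1%), with SLC1A4 again at -1.90 and SLC43A1 at -1.56. SLC38A1 was not called there (-0.11, 95% interval -0.214 to -0.00692, edgeR adjusted p = 0.0586). It was called lower with DESeq2 (-0.11, DESeq2 adjusted p = 0.0278), without siE6 replicate 3 (-0.15, edgeR adjusted p = 0.0205) and with all HEK293T libraries in 1 fit (-0.11, 0.0141), and called higher with the length offset (0.14, 0.0371). SLC38A2 was called at -0.15 but not with the length offset, where it stood at -0.00 (edgeR adjusted p = 0.996), nor without siE8 replicate 3 (-0.12, 0.0517). Between siE4 and siE6, 4 were lower and 4 higher with siE4 (background 32.6% and 32.2%), with SLC7A5 lower by 1.41 and SLC43A1 higher by 0.77. SLC1A4 and SLC1A5 did not reach the threshold between siE4 and siE6, at -0.00 (95% interval -0.214 to 0.206) and -0.03 (-0.139 to 0.0847). POLR3GL did not differ beyond the threshold between siE4 and siE8 (0.14, SE 0.15, edgeR adjusted p = 0.409) or between siE4 and siE6 (-0.22, SE 0.14), and was higher with siE6 than with siE8 (0.36, SE 0.14, edgeR adjusted p = 0.0401).

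ATF4 targets outside transport split in a similar order: 23 fell and 1 rose of 28 with siE4, 20 fell and 1 rose with siE6, and 9 fell and 11 rose with siE8, at medians of -0.73, -0.61 and 0.03. Of all genes, 26.2% rose and 28.7% fell with siE4, 31.2% and 31.8% with siE6, and 29.1% and 28.6% with siE8. CHAC1 fell with each siRNA, by 3.28, 2.68 and 1.61. PSAT1, an enzyme of serine synthesis, fell by 2.21 with siE4 and JDP2 by 2.69 with siE6, and DDIT4, an inhibitor of mTORC1, fell by 0.97 with siE8. Among the regulators siE4 raised 4 and lowered 5 of 15, siE6 raised 7 and lowered 6, and siE8 raised 10 and lowered 4, with ATF4 mRNA itself higher by 0.91 with siE8 (edgeR adjusted p = 5.25e-05). EIF2AK1 was higher by 0.51 with siE4 and with siE6. Other plasma membrane transporters went 4 up and 7 down of 18 with siE4, 1 and 12 with siE6, and 4 and 8 with siE8, among them SLC6A9 (-1.63 with siE4), the neuronal glutamate transporter SLC1A1 (-1.83 with siE6) and the aromatic amino acid transporter SLC16A10 (-1.75 with siE8).

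The lysosomal exporter SLC36A1 rose with all 3, by 0.71, 2.08 and 0.54, in a list of 8 of which 4, 3 and 3 rose and 1, 2 and 2 fell. The mTORC1 sensing genes went 13 up and 7 down of 31, 18 and 8, and 12 and 8, with CASTOR2 higher by 1.23, 1.248 and 1.51 and BMT2, a sensor of S-adenosylmethionine, lower by 1.94 with siE8. Glutathione genes went 3 up and 2 down of 10, 5 and 2, and 4 and 4, with the thioredoxin reductase TXNRD1 lower by 1.70 with siE4. These list counts are to be read beside the all-gene shares given above for each siRNA.

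Overexpression of MAF1 called no transporter in edgeR, where 0.0322% of 15543 genes were called higher and 0.00643% lower. At an unadjusted p under 0.05 there were 2 members of 10, against 9.61% of all genes tested in either direction, and DESeq2 called 1 of 10, against 0.17%. SLC7A11 was at 62.3, 69.4 and 79.2 CPM with MAF1 and at 49.2, 49.2 and 53.8 CPM with eGFP, so all 3 MAF1 libraries were higher (log2 fold change 0.47, SE 0.08, edgeR adjusted p = 0.243). DESeq2 called this rise at an adjusted p of 2.62e-06, and edgeR called it without the low-count filter (0.0342, where 0.0463% of genes were called) and when all HEK293T libraries shared 1 fit (0.0074, where 0.028% were). SLC1A4 was at 16.2, 17.8 and 17.5 CPM against 15.1, 13.96 and 15.3 CPM, also without overlap (0.21, SE 0.06, edgeR adjusted p = 0.417). The other 8 members overlapped between groups, with log2 fold changes of -0.13 to 0.07. The share of all genes without overlap is not given here. The lack of overlap for SLC7A11 and SLC1A4 is therefore a description of these libraries only. Among the other lists only PSAT1, at 343 against 290 CPM, was called (0.24, edgeR adjusted p = 0.0407).

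In THP-1, 4 h of ML-60218 raised 5 transporters and lowered 1, against 8.48% of 15327 genes called higher and 7.05% lower. SLC7A11 was at 21.2, 26.8 and 19.1 CPM against 8.43, 9.57 and 10.4 CPM with DMSO. All inhibitor libraries lay above all DMSO libraries, by 1.24 on the log2 scale (SE 0.15, edgeR adjusted p = 0.000191), and 1.22% of genes moved as far. SLC7A5 was at 154, 167 and 142 CPM against 87.0, 89.95 and 85.1 CPM, a rise of 0.82 (SE 0.06, edgeR adjusted p = 4.22e-06). Their partner SLC3A2 was at 61.1, 81.3 and 63.0 CPM against 53.2, 47.7 and 44.6 CPM, a rise of 0.50 (SE 0.12, edgeR adjusted p = 0.0155). This call rested on few libraries: it was lost without the DMSO replicate 2 or 3 or the ML-60218 replicate 2, where the rise was 0.49, 0.44 and 0.36 (edgeR adjusted p = 0.0535, 0.0617 and 0.0711).

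The arginine carrier SLC7A1 was at 151, 159 and 151 CPM with ML-60218 against 126, 126 and 124 CPM, a rise of 0.30 (SE 0.03, edgeR adjusted p = 0.000138), and SLC1A5 rose by 0.19 (edgeR adjusted p = 0.00925). SLC1A4 fell by 0.20, from 162, 162 and 151 CPM to 139, 135 and 140 CPM (edgeR adjusted p = 0.006). The ASCT genes thus went in opposite directions, without overlap of groups in either. SLC38A2 was at 520, 562 and 499 CPM against 471, 471 and 463 CPM (log2 fold change 0.17, SE 0.06, edgeR adjusted p = 0.0587) and was called with DESeq2 (0.0189), on protein-coding transcripts alone (0.0353), without ML-60218 replicate 3 (0.039) and with only the compared groups in the fit (0.0269). SLC38A1, SLC7A6 and SLC43A1 had values of 0.08, -0.06 and -0.09 and were not called, save SLC38A1 with only the compared groups in the fit (edgeR adjusted p = 0.0499). ATF4 targets rose in 18 of 28 cases and fell in none, among them TRIB3, a pseudokinase that inhibits ATF4 (0.84), DDIT4 (0.79) and the transcription factor ATF3 (0.78). PPP1R15A rose by 0.65 and NEDD4L, a ubiquitin ligase, by 0.63, among 3 regulators that rose of 15. Of 14 other plasma membrane transporters 4 rose and none fell, led by SLC43A2 (0.98). Lysosomal transporters went 1 up and 1 down of 9, mTORC1 sensing genes 3 and 3 of 31, with SESN3 lower by 0.52, and glutathione genes 3 and 0 of 10. Of all genes, 8.48% rose and 7.05% fell.

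CHX alone lowered 8 transporters and raised SLC3A2, where 32.5% of genes fell and 33.5% rose. With the length offset the share of called genes that were higher fell from 50.8% to 32.7% and the all-gene median to -0.20, and the members called lower or higher kept their direction, SLC1A4 being at -0.22 and SLC43A1 at -0.45 on that scale. SLC7A1 fell most, from 126, 126 and 124 CPM to 31.8, 30.3 and 29.6 CPM (log2 fold change -2.03, SE 0.04, edgeR adjusted p = 6.14e-13). SLC7A11 was at 3.03, 2.38 and 3.69 CPM, a fall by 1.64 (SE 0.17, edgeR adjusted p = 1.44e-06), and SLC1A5 at 52.8, 51.1 and 53.2 CPM against 119, 120 and 114 CPM, a fall by 1.17 (SE 0.04, edgeR adjusted p = 1.44e-10). In none of these did a CHX library reach a DMSO library. SLC38A2, SLC7A5 and SLC38A1 fell by 1.00, 0.82 and 0.76. SLC1A4 and SLC43A1 fell by 0.15 and 0.18 (edgeR adjusted p = 0.00597 and 0.0379), the latter without a call when CHX replicates 1, 2 or 3 or DMSO replicates 1 or 2 were left out (edgeR adjusted p = 0.0631 to 0.129), with DESeq2 (0.0678), without the low-count filter (0.0511) or on protein-coding transcripts alone (0.0871). In TPM neither fell. SLC1A4 was at 58.9 ± 2.93 TPM with CHX and 47.7 ± 1.42 with DMSO, higher in every CHX library. SLC43A1 was at 15.95 ± 0.829 and 15.2 ± 1.58 TPM, with overlap. The direction of these small changes thus depended on the scaling.

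SLC3A2 alone rose, to 107, 131 and 126 CPM from 53.2, 47.7 and 44.6 CPM (log2 fold change 1.32, SE 0.12, edgeR adjusted p = 5.29e-07), every CHX library being above every DMSO library. Its transcripts that are not annotated as protein-coding made up 20.3% ± 1.05 of its reads with CHX and 11.3% ± 2.48 with DMSO. On protein-coding transcripts alone the rise was 1.15 (edgeR adjusted p = 6.35e-06).

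For SLC7A6 the sum over transcripts hid a shift between them. The gene stood at 59.2, 55.9 and 62.0 CPM with CHX and at 56.0, 61.1 and 59.8 CPM with DMSO, overlapping fully (log2 fold change 0.00, SE 0.05, edgeR adjusted p = 0.983). Transcripts annotated as targets of nonsense-mediated decay, the pathway that removes mRNAs with early stop codons during translation, held 56.6%, 63.1% and 58.1% of its reads with CHX against 19.4%, 18.1% and 26.6% with DMSO. The groups did not overlap, and the means differed by 37.9 points (exact permutation test, two-sided p = 0.1, the smallest that 3 against 3 allow). ENST00000648130 rose from 17.1% to 45.7% of the gene's reads while the coding ENST00000219343 went from 55.8% to 25.3%. On protein-coding transcripts alone SLC7A6 fell by 1.00 on the log2 scale (edgeR adjusted p = 2.99e-07, in a range of 2.99e-07 to 1 over the alternatives). Of the other members, 4 had transcripts of this class, and their shares with CHX differed from DMSO by -0.481 to 0.612 points (exact permutation test, two-sided p = 0.4 to 0.6). In HEK293T the class held 3.55% to 12.8% of SLC7A6 reads, lowest with siE4 and highest with siE8. This share was examined after the values of the transcripts were seen.

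**Figure D4:**
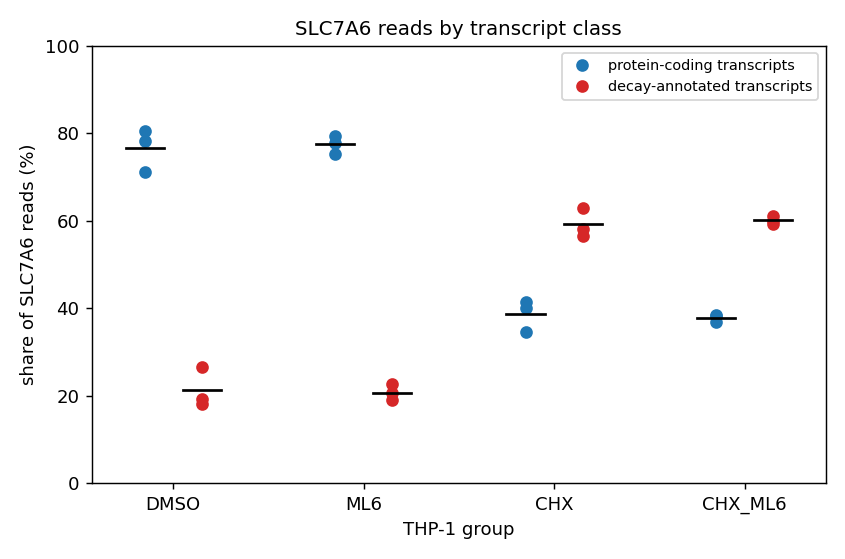
Points give, for each THP-1 library, the percentage of SLC7A6 reads on protein-coding transcripts (blue) and on transcripts annotated for nonsense-mediated decay (red), with black lines as group means of 3 libraries. The decay class lies at 18.1% to 26.6% without CHX and at 56.6% to 63.1% with it, whether or not ML-60218 was present.

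Among the lists, ATF4 targets went 8 up and 12 down of 28 with CHX, with ATF3 higher by 1.80, the stress protein NUPR1 higher by 1.52 and PSAT1 lower by 1.71. Regulators went 8 up and 6 down of 15, with MYC lower by 1.98 and PPP1R15A higher by 1.61. Glutathione genes went 8 down of 10 with none up, including TXNRD1 (-0.89) and GCLM (-0.71). Other plasma membrane transporters went 2 up and 5 down of 14, lysosomal transporters 5 up and 3 down of 9, and mTORC1 sensing genes 10 up and 10 down of 31. Of all genes, 33.5% rose and 32.5% fell with CHX. Mitochondrial transcripts held 4.09% ± 0.356 of reads with CHX and 6.53% ± 0.411 with DMSO, and their part in these values was not tested.

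When ML-60218 was added to CHX and compared with CHX alone, 3 members rose and 3 fell (background 8.75% higher and 7.75% lower). SLC3A2 rose further, to 175, 223 and 198 CPM (log2 fold change 0.71, SE 0.11, edgeR adjusted p = 0.00116). SLC7A5 was at 64.5, 71.8 and 65.1 CPM against 51.2, 46.5 and 50.3 CPM, a rise of 0.44 (edgeR adjusted p = 0.000462), and SLC7A1 at 37.3, 40.7 and 39.0 CPM against 31.8, 30.3 and 29.6 CPM, a rise of 0.35 (edgeR adjusted p = 0.000115). These 3 were also among the 5 that rose without CHX. SLC1A4 fell by 0.22 (edgeR adjusted p = 0.00366), SLC38A2 by 0.23 (0.0144) and SLC7A6 by 0.17 (0.0241). The SLC38A2 call was lost without CHX replicate 1, CHX replicate 3 or CHX with ML-60218 replicate 2 (edgeR adjusted p = 0.0753 to 0.0849), and the SLC7A6 call without any of those or CHX with ML-60218 replicate 1 (0.0674 to 0.126). The SLC7A6 call was lost as well with the length offset (-0.14, edgeR adjusted p = 0.203) and on protein-coding transcripts alone (-0.20, 0.123). SLC7A11 was at 3.86, 3.02 and 3.38 CPM against 3.03, 2.38 and 3.69 CPM, overlapping (0.18, SE 0.17, edgeR adjusted p = 0.56).

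The ML-60218 effect with CHX minus that without it was called for 3 members, all lower with CHX, against 3.7% of genes lower and 2.86% higher. The differences were -1.06 for SLC7A11 (SE 0.23, edgeR adjusted p = 0.0175), -0.40 for SLC38A2 (SE 0.08, edgeR adjusted p = 0.0118) and -0.38 for SLC7A5 (SE 0.08, edgeR adjusted p = 0.0204). Leaving out CHX replicate 3 took away the SLC7A11 call (-0.91, edgeR adjusted p = 0.0544) and the SLC7A5 call (0.0513), leaving 1 member. The SLC7A5 call was lost as well without CHX replicate 1 (0.0556) or CHX with ML-60218 replicate 3 (0.0509), and at an adjusted p under 0.01 there was none. For SLC7A1 the difference was 0.06 (SE 0.05) and for SLC3A2 0.21 (SE 0.17), neither called. Of 28 ATF4 targets 11 were lower and none higher in this test, PSAT1 by 0.83, JDP2 by 0.79 and CBS, which makes cystathionine, by 0.52. Under CHX itself ML-60218 raised 5 ATF4 targets and lowered 1, ATF3 by 1.19 being the largest rise, and among regulators PPP1R15A rose by 0.56 and NFE2L2, which acts through the antioxidant element, by 0.33. Other transporters of the plasma membrane went 2 up and 0 down of 14 under CHX, lysosomal ones 1 and 1 of 9, mTORC1 sensing genes 9 and 3 of 31, with RRAGD higher by 0.57, and glutathione genes 0 and 3 of 10. Of all genes, ML-60218 under CHX raised 8.75% and lowered 7.75%.

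**Figure D5:**
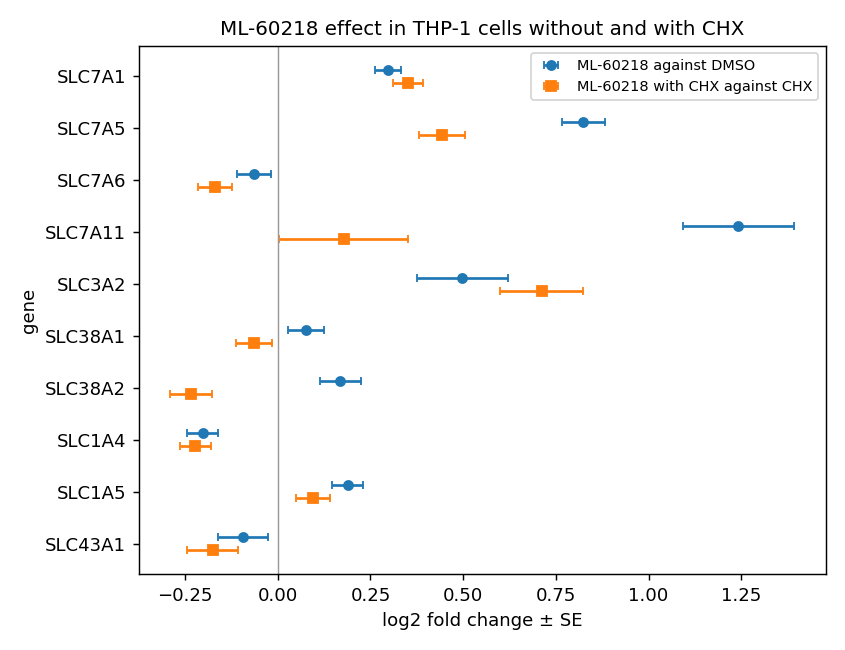
Points are log2 fold changes of each transporter for ML-60218 against DMSO (circles) and for ML-60218 with CHX against CHX (squares), with standard errors from edgeR. The pair of points is farthest apart for SLC7A11, at 1.24 and 0.18. It lies on either side of 0 for SLC38A2 and for SLC38A1, the latter at 0.08 and -0.06.

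Likeness of pattern was described by Pearson's r of log2 CPM centred on each experiment's mean, over the 42 libraries and among 9098 protein-coding genes with at least 5 CPM in every experiment. Libraries of 1 group share their treatment, so r carries no test. Among pairs of members SLC7A1 with SLC1A5 gave 0.95, SLC7A1 with SLC38A2 and SLC38A2 with SLC1A5 each 0.92, and SLC1A4 with SLC43A1 0.91. SLC7A6 ran against SLC1A4 at -0.87. Outside the set the closest gene was SLC41A1 for SLC7A1 (0.98), XPOT, which exports tRNAs from the nucleus, for SLC7A5 (0.94), BLMH for SLC7A6 (0.95) and PHGDH, the entry enzyme of serine synthesis, for SLC7A11 (0.94). It was RNF19B for SLC3A2 (0.90), PRKCA for SLC38A1 (0.94), ACTN1 for SLC38A2 (0.96), EIF4EBP1, a repressor of translation downstream of mTORC1, for SLC1A4 (0.95), FYN for SLC1A5 (0.98) and RNF10 for SLC43A1 (0.96). ACTN1 was also among the 3 closest genes of SLC7A1 and of SLC1A5.

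Some of the members' values are less certain than others. SLC7A5 has copies annotated as pseudogenes, SLC7A5P1 and SLC7A5P2, which averaged 0.481 and 0.623 CPM. In HEK293T the SLC1A5 transcript ENST00000594991 held 9.30% ± 0.313 of the gene's reads in the 25 nM control and 11.2% ± 1.26 with siE8. Its share was 3.65% ± 0.299 with siE4 and 3.92% ± 0.220 with siE6. With the POLR3G siRNA it was 1.69% ± 0.786, against 10.5% ± 0.45 in the 200 nM control. With the POLR3G ASO it was 12.3% ± 0.353, against 11.2% ± 0.473 with the scramble ASO.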

How the data were processed

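Polyadenylated RNA of HEK293T and THP-1 cells was sequenced from both fragment ends in stranded mRNA libraries, per the labels' protocols. The submitters' processing notes list bcl2fastq 2.20, Trim Galore, Salmon, DESeq2 and hg38; the sources used here give no other version and no transcript annotation. According to the headers of the deposited tables, the authors supplied an estimated count and a TPM value per transcript and library.

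Transcripts were matched to GENCODE 29 (158359 of 194142, 81.6%), which left out 8.06% to 9.54% of reads. A gene's estimated count is the rounded sum over its transcripts, and its TPM the sum. CPM are gene counts scaled by TMM library sizes. In R 4.3.3, edgeR 4.0.16 fitted each experiment alone (quasi-likelihood test, low counts removed by filterByExpr), p-values were adjusted by Benjamini-Hochberg across every tested gene, and a call means an adjusted p under 0.05. The ASO and siRNA difference was fitted over both experiments. Alternatives were DESeq2 1.42.0, its size factors, no low-count filter, a threshold of 0.01, a replicate block, an offset for effective transcript length, protein-coding transcripts only, other sets of libraries and each library left out. The fits were tested on simulated data. Tables and figures were made in Python 3.11.15 using matplotlib 3.10.9, pandas 2.3.3 and numpy 2.4.6.

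The members and lists were chosen with earlier results of these data known. Named are all members, POLR3G, POLR3GL and MAF1, genes closest in pattern to a member, and from each list at most 3 called genes with the largest change and a mean of at least 5 CPM. Of 30 listed ATF4 targets 28 were analysed here. The labels do not state separate cultures, so a p-value covers the spread of these 3 libraries per group alone, and that spread may be technical.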

Additional observations from a re-analysis of the deposited data

Results flagged for a closer look

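Effects that differed by a direct test between reagents or backgrounds were the following, each on the log2 scale with an edgeR adjusted p under 0.05. For the POLR3G ASO effect minus the POLR3G siRNA effect, SLC7A11 gave 2.16, SLC43A1 0.78, SLC7A5 0.72, SLC1A4 0.62, SLC7A1 0.40, SLC1A5 0.16 and SLC38A2 0.12, while SLC38A1 gave -0.70 and SLC7A6 -0.53. For the ML-60218 effect with CHX minus that without it, SLC7A11 gave -1.06, SLC38A2 -0.40 and SLC7A5 -0.38.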

How the results depend on the processing

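Of 140 member values, 119 kept their side of the threshold under every alternative run, and 21 did not. Of the 119, 111 kept their sign as well, and 8, which were called under no setting, changed sign near 0. Of 2070 alternative values 45 lost the call and 24 gained it. A further 2, not called with the main settings, were called with the opposite sign and are counted as reversals. The reversals were SLC7A6 with CHX on protein-coding transcripts alone (-0.997, against 0.00), where the transcripts annotated for decay are left out, and SLC38A1 between siE6 and siE8 with the length offset (0.14, against -0.11), whose cause was not tested. MAF1 overexpression called 1 member, SLC7A11, in place of 0 with DESeq2, without the low-count filter and with all HEK293T libraries in 1 fit. The ML-60218 by CHX test called 0 members in place of 3 at an adjusted p under 0.01, and 1 to 3 when single libraries were left out; it was not run on the compared groups alone, since it uses all 4. A replicate block changed 0 of 140 calls, and the member counts were 8, 9, 10, 10, 6, 0, 6, 9, 6, 3, 9, 10, 9 and 8 with the block as without it. Same-numbered libraries did not all correlate above 0.1 in any comparison, so the numbers were not taken as pairs. With the length offset the share of called genes that were higher moved from 48.5% to 58.9% between siE4 and siE8 and from 50% to 60.2% between siE6 and siE8. For the ASO the all-gene median moved to 0.19 with DESeq2 and 0.16 without the filter. With the length offset it moved the other way, to -0.09, and the share of called genes that were higher from 50.3% to 40.4%. Depth limits SLC7A11 most, at 2.38 to 3.86 CPM in the CHX libraries.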
